A study of Mus musculus with 6 samples.

Results

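The genes described here are the 4 Id genes and 6 genes of bone morphogenetic protein (BMP) signalling in sorted epidermal cells of mouse back skin. They were taken by symbol (Id1, Id2, Id3, Id4, Bmp2, Bmp4, Bmpr1a, Bmpr2, Smad1 and Smad6) from a matrix of 24982 rows, and all 10 were found, each in 1 row. The group was selected on the measured difference between denervated and normal skin in these libraries, in which Id1 and Id3 were lower, together with known roles in the pathway. The values of these 10 genes in that contrast are therefore a description, with no test of their own.

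Poly(A) RNA was measured in 6 libraries, from 3 mice numbered 890, 892 and 899. Each mouse gave 1 library from the left back skin, whose cutaneous nerves had been removed (denervated, n = 3), and 1 from the right back skin, whose nerves were left in place (normal, n = 3). All mice, and so both groups, carried Lgr6-EGFP-Ires-CreERT2 and R26loxP-stop-loxP-tdTom. In this genotype Lgr6-expressing cells make GFP and a Cre that tamoxifen activates, and the activated Cre switches on the red reporter tdTomato for good in those cells and their descendants. A single dose of tamoxifen (20 µg) was given to every mouse at postnatal day 42, and both sides were sampled 4 weeks after surgery. The age at surgery is not given in the sources used here. Per the series' design text the sorted cells were positive for GFP, Tomato and Itga6 (CD49f), an integrin of basal keratinocytes. The labels describe 1 midline incision, housing of each mouse alone and meloxicam as analgesic. No sham dissection is mentioned for the right side, so nerve loss, dissection and body side cannot be told apart.

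BMP ligands such as Bmp2 and Bmp4 bind a pair of serine/threonine kinase receptors, for which Bmpr1a is a type I and Bmpr2 a type II subunit. The type I receptor phosphorylates Smad1 and its relatives, which enter the nucleus with Smad4 and activate target genes, and Smad6 is an inhibitory Smad that limits this step. The Id genes are the best known direct targets. Their proteins have a helix-loop-helix domain but no basic region, so they bind E proteins such as Tcf3 and keep them off DNA. In skin, BMP signalling is known for holding hair follicle stem cells at rest and for its part in differentiation, and Id proteins for favouring the undifferentiated state.

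Library totals ran from 9610071 to 26167593 counts, and in 3 of 3 mice the denervated library was the smaller. Levels are given in CPM (counts scaled to a common library total after TMM, a correction for library composition) for comparing libraries. For comparing genes they are given in TPM (transcripts scaled to a common total after correction for their length). The TPM are as deposited, without TMM scaling. A count of 3, taken as the floor, was worth 0.113 to 0.323 CPM, for counting error only. The basal keratinocyte and sort markers (Krt5, Krt14, Itga6, Itgb4, Trp63, Cdh1, Lgr6 and Col17a1) were present in every library, with a summed level of 43194 to 43960 CPM on the normal and 42098 to 47918 CPM on the denervated side. The first principal component (36.5% of the variance in log2 CPM) ordered the libraries by mouse. The normal and denervated scores were −9.73 and −37.6 in mouse 890, 0.711 and 0.944 in mouse 892, and 24.5 and 21.1 in mouse 899. The denervated library of mouse 890 lay furthest out.

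The Id genes lie on 4 chromosomes (GENCODE vM21, mm10). Id1 spans chr2:152736251-152737410 on the plus strand, Id2 chr12:25093799-25097140 on the minus strand, Id3 chr4:136143497-136145755 on the plus strand and Id4 chr13:48261228-48266026 on the plus strand. All are protein coding. RefSeq promoter windows (GRCm38.p6, the assembly of mm10) of the 250 bases before the transcription start were matched for 8 of the 10 genes. Id1 and Bmp2 had no entry. The stretches below come from the windows of 2 Id genes that were lower on the denervated side and, for contrast, of Bmp4, whose level was alike on both sides. The Id4 and Bmp4 stretches lie before the GENCODE gene. The RefSeq start used for Id2 lies inside the GENCODE gene, so its stretch is intronic in the longest GENCODE transcript and upstream of the shorter ones. They are printed 5′ to 3′ in the direction of the gene and only where no GENCODE exon overlaps. Capitals mark GGCGCC, a GC-rich site that BMP Smads are known to bind, and CCAAT or its reverse complement ATTGG.

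Id2, chr12:25096254-25096342, minus strand: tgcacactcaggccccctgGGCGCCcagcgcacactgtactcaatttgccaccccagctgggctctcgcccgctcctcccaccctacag

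Id4, chr13:48260866-48261115, plus strand: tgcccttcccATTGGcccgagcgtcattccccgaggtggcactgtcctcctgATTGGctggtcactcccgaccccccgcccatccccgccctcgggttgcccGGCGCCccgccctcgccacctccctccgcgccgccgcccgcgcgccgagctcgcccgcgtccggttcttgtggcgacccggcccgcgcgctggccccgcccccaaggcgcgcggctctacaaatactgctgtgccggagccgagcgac

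Bmp4, chr14:46390670-46390919, minus strand: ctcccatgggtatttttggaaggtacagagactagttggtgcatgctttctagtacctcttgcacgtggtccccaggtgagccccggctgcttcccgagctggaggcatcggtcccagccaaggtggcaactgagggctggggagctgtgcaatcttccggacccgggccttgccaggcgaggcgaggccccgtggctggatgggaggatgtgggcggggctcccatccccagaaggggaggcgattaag

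GGCGCC occurred once in the 250-base windows of Id2, Id4, Bmpr1a and Bmpr2 and in none of those of Id3, Bmp4, Smad1 and Smad6. Of all 32851 promoter windows of this length, 9.59% held it on either strand (the letters read the same on both). It starts 231 bases before the RefSeq start site in Id2 and 148 bases before it in Id4. The Smad palindrome GTCTAGAC, which reads the same on both strands, was in none of the 8 windows and in 0.167% of all. CCAAT, searched on both strands, was found 3 times in the window of Id2 and 2 times in that of Id4, and 33.8% of all windows held it. Such matches describe the letters only. The 8 windows held 62.8% to 78.8% G and C, beside a median of 52.4% over all windows. For GGCGCC, which holds only these 2 bases, the share over all windows is therefore no matched background. GGCGCC was held by both Id genes shown and also by the 2 receptor genes, whose levels were alike on both sides.

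On the intact side Id3 was the most abundant of the 10 genes per transcript length and Smad6 the least. Id3 stood at 273 ± 70.4 TPM (SD, n = 3, normal side), Bmp2 at 127 ± 20.4 TPM and Id1 at 112 ± 28.1 TPM. The ranges of Bmp2 and Id1 over the 3 normal libraries overlapped, so their order is not fixed by these data. Bmpr1a (65.5 ± 2.47 TPM), Bmpr2 (57.9 ± 0.611 TPM), Bmp4 (52.2 ± 1.78 TPM) and Smad1 (47.4 ± 1.87 TPM) followed without overlap between neighbours. Id2 (35.0 ± 4.37 TPM) and Id4 (18.0 ± 1.59 TPM) came next, again without overlap, and Smad6 stood at 0.562 ± 0.280 TPM. Id1 and Id3 varied more between the 3 normal libraries than the receptors did. Id1 and Id3 together made up 84.2% to 89.5% of the summed Id TPM in the 6 libraries.

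In CPM all 4 Id genes were lower on the denervated side in each of the 3 mice, while the BMP ligands and receptors differed little. In the deposited TPM the direction turned for 2 of them in mouse 899, where Id2 went from 30.6 to 32.0 TPM and Id3 from 194 to 198 TPM. The paired fit (edgeR with the animal as a block) put Id1 37.3% lower, Id3 30.8% lower, Id2 26.1% lower and Id4 19.9% lower. Over all 12310 genes that passed the filter on low counts, 21.4% were lower in all 3 mice (CPM), and the median log2 fold change was −0.02. In bulk samples fewer cells of a type and less RNA per cell cannot be told apart.

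**Figure D1:**
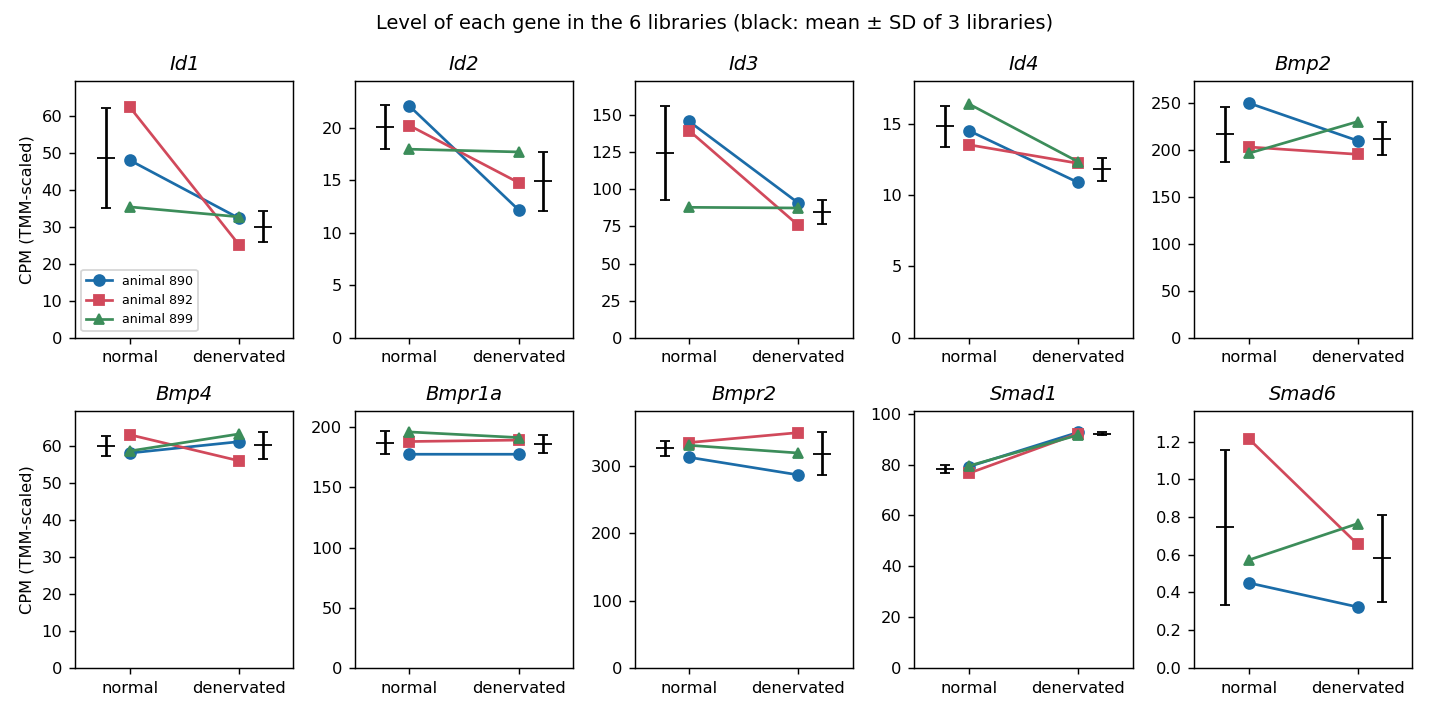
Level of each of the 10 genes (CPM after TMM scaling, axis from 0) in the normal and denervated library of each mouse, joined by a line. Black marks give the mean ± SD of 3 libraries. On this scale all 4 Id genes are lower on the right in every mouse, by much for Id1 to Id3 in mice 890 and 892 and hardly in mouse 899. The lines of Bmp4, Bmpr1a and Bmpr2 are nearly level and those of Smad1 end higher.

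Id1, the member most often used as a readout of BMP signalling, had 48.1, 62.6 and 35.5 CPM in the normal libraries of mice 890, 892 and 899. It had 32.4, 25.2 and 32.8 CPM in their denervated libraries. All 3 denervated libraries were below all 3 normal ones, with the normal library of mouse 899 close above the highest of them. The log2 fold change of Id1 was −0.67 ± 0.16 (SE, paired fit), with differences of −0.57, −1.31 and −0.11 in the 3 mice. Id3, the most abundant Id mRNA, had 146, 140 and 87.9 CPM on the normal and 90.8, 75.7 and 87.4 CPM on the denervated side, in the same order of mice. The groups overlapped, because the normal library of mouse 899 lay below the denervated library of mouse 890. Its log2 fold change was −0.53 ± 0.13, from differences of −0.68, −0.88 and −0.01.

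Id2, which is also known from Langerhans cells and innate lymphocytes, had 22.1, 20.2 and 17.9 CPM on the normal side and 12.2, 14.8 and 17.7 CPM on the denervated side. The groups did not overlap, although the highest denervated and the lowest normal library, both of mouse 899, nearly met. Its log2 fold change was −0.44 ± 0.16, with differences of −0.86, −0.45 and −0.02 in the 3 mice, and −0.24 without mouse 890. Id4, the least abundant of the 4, had 14.5, 13.5 and 16.4 CPM on the normal and 10.9, 12.2 and 12.3 CPM on the denervated side, without overlap. Its log2 fold change was −0.32 ± 0.14. In CPM it was the only Id gene whose difference in mouse 899 (−0.41) came near that in mouse 890 (−0.42). In TPM it went from 19.1 to 11.6 in mouse 890 and only from 18.8 to 16.8 in mouse 899. No overlap in CPM, lower on the denervated side, was thus found for 3 of the 4 Id genes, beside 9.21% of all tested genes. In TPM the groups overlapped for Id2 and Id4 as well, with the lowest normal library at 30.6 and 16.2 TPM and the highest denervated one at 32.0 and 16.8 TPM, and Id1 alone had no overlap.

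The spread between mice arose mostly on the normal side for Id1 and Id3. The 3 denervated libraries of Id1 lay between 25.2 and 32.8 CPM and those of Id3 between 75.7 and 90.8 CPM. On the normal side, mouse 899 had the lowest Id1, Id2 and Id3 of the 3 mice and, in CPM, the highest Id4. In TPM the highest normal Id4 was that of mouse 890 (19.1, beside 18.8 in mouse 899). A test of the difference between mice in the same fit, over both sides, called none of the 9 tested genes at an adjusted p below 0.05 (edgeR, Benjamini-Hochberg), beside 3.78% of all tested genes. The smallest adjusted p between mice was that of Id3, 0.395, with a level over both sides of 115 CPM in mouse 890, 103 in mouse 892 and 87.6 in mouse 899. Without mouse 892, and likewise without the filter on low counts, Id3 was called between mice.

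The 2 ligand genes had similar levels on both sides. Bmp2, made by keratinocytes, had 250, 203 and 196 CPM on the normal and 209, 195 and 230 CPM on the denervated side. It was lower in 2 mice and higher in mouse 899, and the groups overlapped (log2 fold change −0.03 ± 0.09). Bmp4, better known as a ligand from dermal cells, had 58.1, 63.0 and 58.6 CPM on the normal and 61.1, 56.0 and 63.2 CPM on the denervated side. Its sides overlapped too, with a log2 fold change of 0.00 ± 0.09.

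The 2 receptor genes were 0.585% (Bmpr1a) and 2.58% (Bmpr2) lower on the denervated side in the paired fit, within their standard errors. Bmpr1a, a type I receptor, had 177.5, 188 and 196 CPM on the normal and 177.5, 189 and 191 CPM on the denervated side, a log2 difference of −0.01 ± 0.07 (SE). Bmpr2, the type II receptor, had 313, 335 and 331 CPM on the normal and 287, 350 and 319 CPM on the denervated side, a log2 difference of −0.04 ± 0.08 (SE). For each receptor the sides overlapped and the mice did not share a direction.

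Smad1, the transducer, was the only one of the 10 genes that was higher in all 3 mice. It had 79.2, 76.6 and 79.5 CPM on the normal and 92.7, 92.2 and 91.6 CPM on the denervated side. The groups did not overlap (log2 fold change 0.23 ± 0.08), which was also the case, in this direction, for 9.76% of all tested genes. Smad6, the inhibitory Smad, did not pass the filter. It had 12, 26 and 8 counts on the normal and 3, 9 and 10 counts on the denervated side, or 0.323 to 1.22 CPM, with the lowest library at the floor of 3 counts. Smad6 was therefore not tested in the main fit. Its log2 differences of −0.48, −0.89 and 0.42 in mice 890, 892 and 899 rest on few counts, and nothing is read from them.

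**Figure D2:**
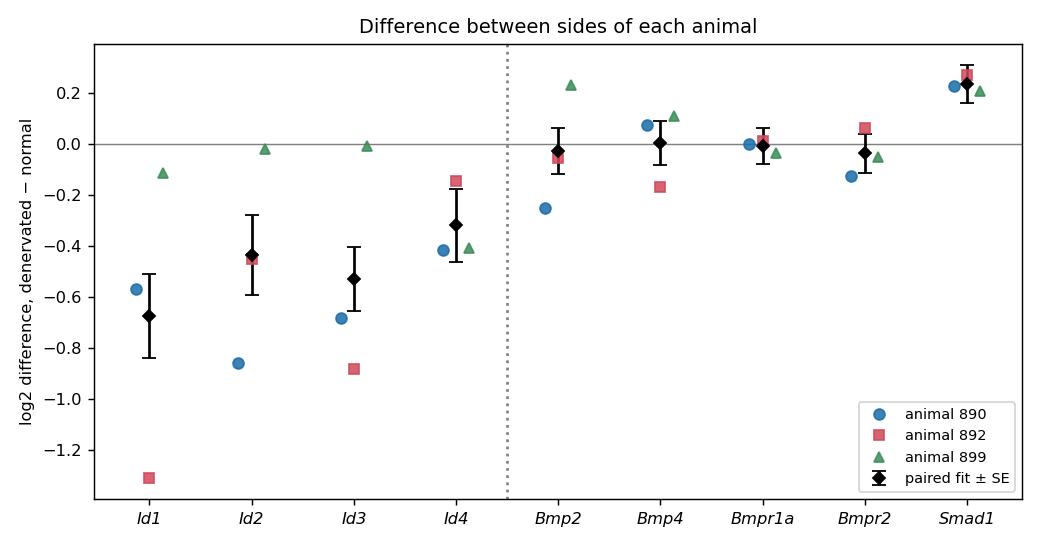
Log2 difference of CPM between the denervated and the normal side (vertical axis) for the 9 tested genes. Coloured points are single mice and black diamonds the paired fit ± SE. The 4 Id genes left of the dotted line lie below 0 in every mouse on this scale, with Id2 and Id3 of mouse 899 close to 0, between −0.32 and −0.67 in the fit, and the 4 ligand and receptor genes between −0.04 and 0.00.

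Averaged over the 4 Id genes, the log2 difference between sides was −0.63 in mouse 890, −0.70 in mouse 892 and −0.14 in mouse 899. Averaged over the 4 ligand and receptor genes it was −0.08, −0.04 and 0.06. The Id mean was below the ligand and receptor mean in 3 of 3 mice, by 0.47 ± 0.24 (SD of 3 mice). Of the 9 tested genes 2 were called in the paired fit, Id1 and Id3, both lower. Over all tested genes 3.46% were called, 2.88% higher and 0.577% lower. Nothing is read from the members' count, since they were proposed from this contrast. Without mouse 892 the log2 fold changes of Id1 and Id3 were −0.33 and −0.33 and none of the 9 was called. Without the animal as a block, with the estimated counts, with DESeq2 or with limma on TPM, none was called either. The log2 fold changes of the 4 Id genes stayed negative in all 11 alternatives, from −0.95 to −0.33 for Id1, from −0.64 to −0.24 for Id2, from −0.78 to −0.33 for Id3 and from −0.40 to −0.27 for Id4. The authors' deposited table gives log2 fold changes of −0.67 for Id1, −0.42 for Id2, −0.52 for Id3 and −0.29 for Id4, from the same libraries. Its adjusted p was below 0.05 for Id1 but not for Id3, and was not given for Id2 and Id4.

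Genes induced when tissue is taken apart had a median difference between sides in the same order of mice as the median of the Id genes. Of 22 such genes, among them Fos, Jun, Egr1, Atf3 and Zfp36, 17 were lower on the denervated side in mouse 890, 18 in mouse 892 and 2 in mouse 899. These are 77.3%, 81.8% and 9.09%, beside 51.9%, 51.3% and 52.4% of all tested genes in the same mice. The median log2 difference of the 22 genes was −0.21, −0.55 and 0.28 in these mice. The median of the Id genes was −0.63, −0.67 and −0.07. Taken singly, Id1 and Id3 followed this order of mice, while the differences of Id2 and Id4 were lowest in mouse 890. The summed level of the list went from 36095 to 32281 CPM in mouse 890 and from 31928 to 25086 CPM in mouse 892, and stood at 27335 and 34388 CPM in mouse 899. In the paired fit 4 of the 22 passed (18.2%, beside 3.46% of all tested genes). The list was chosen with earlier results of these data known, so this share is a description and no independent test. Klf6, Egr3 and Fosb rose (log2 fold changes 0.44 ± 0.09, 0.35 ± 0.08 and 0.40 ± 0.10 SE) and Socs3, a feedback inhibitor of cytokine signalling, fell (−0.59 ± 0.14 SE). None of these 4 calls held without the block or in limma on TPM. The call of Socs3 was also lost with estimated counts, with DESeq2 and without mouse 892, those of Klf6, Egr3 and Fosb without mouse 890, that of Fosb without mouse 892, and those of Egr3 and Fosb with library totals. The part of the dissociation response in the Id values was not tested.

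**Figure D3:**
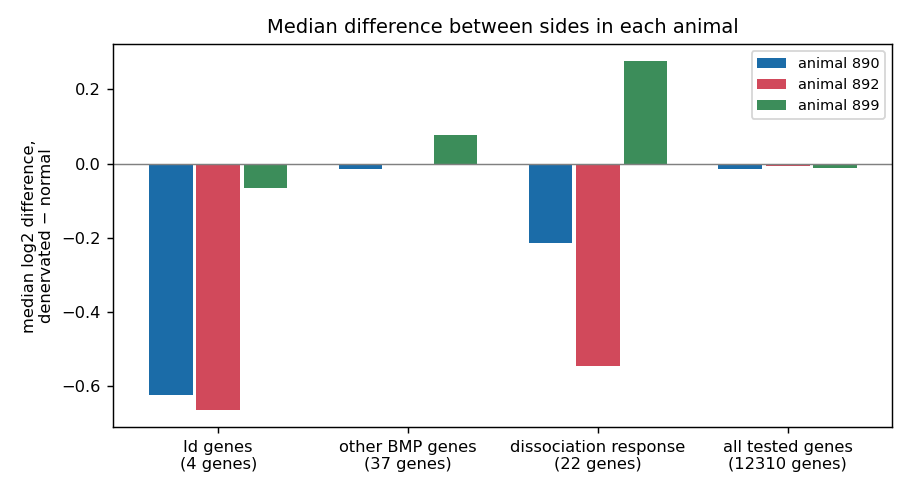
Median log2 difference between the denervated and the normal side (vertical axis) in each mouse, for the 4 Id genes, 37 other BMP genes, 22 dissociation response genes and all 12310 tested genes. The Id and dissociation medians are lowest in mouse 892 and highest in mouse 899, and the medians of all tested genes stay between −0.02 and −0.01.

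Markers of other cell types that the sort could hold, several of which express Id genes, were counted beside the keratinocyte genes. Of 12 endothelial markers, Cdh5, Emcn and Cldn5 were at 0 in all 6 libraries, and the list summed to 4.62 to 6.72 CPM on the normal and 4.63 to 5.60 CPM on the denervated side. The 12 Langerhans cell and myeloid markers summed to 107 to 185 CPM on the normal and 150 to 191 CPM on the denervated side and were higher there in 3 of 3 mice, with Cd207, the Langerhans cell lectin, at 11.1 to 21.6 CPM. Sums of 10 lymphoid markers were 111 to 133 and 98.1 to 166 CPM, of which Thy1 alone gave 89.2 to 157 CPM, while Cd3e did not exceed 3.05 CPM. The 11 fibroblast and dermal papilla markers summed to 192 to 463 and 229 to 509 CPM, nearly all of it Postn. Col1a1 did not exceed 1.73 CPM, and Lum, Corin and Twist2 were at 0. Sums of 8 pericyte and smooth muscle markers were 160 to 168 CPM on the normal and 124 to 164 CPM on the denervated side, lower in 3 of 3 mice. Most of that sum came from Notch3 and Cspg4, while Rgs5 did not exceed 0.230 CPM and Pdgfrb 0.0935 CPM. The 10 Schwann cell and melanocyte markers summed to 3.49 to 6.36 and 3.49 to 5.13 CPM, with Sox10 at most at 0.0468 CPM. What these cells add to the Id values was not tested.

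None of the 3 genes of E proteins, the partners that Id proteins bind, passed the paired test. Tcf12 had a log2 fold change of 0.11 (adjusted p = 0.474, edgeR) and Tcf4 of 0.13 (adjusted p = 0.479, edgeR). The summed TPM of the 4 Id genes was 502, 487 and 326 on the normal side of mice 890, 892 and 899 and 296, 254 and 324 on their denervated side. That of the 3 E protein genes was 121, 119 and 125 on the normal and 119, 118 and 140 on the denervated side. Id mRNA thus outnumbered E protein mRNA by 3.62 ± 0.873 to 1 on the normal and 2.32 ± 0.164 to 1 on the denervated side (SD, n = 3). The ratio was lower on the denervated side in 3 of 3 mice, and all 3 normal libraries (2.61 to 4.14) were above all 3 denervated ones (2.15 to 2.48). Since the Id genes make up its upper part, the ratio is no independent measure.

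**Figure D4:**
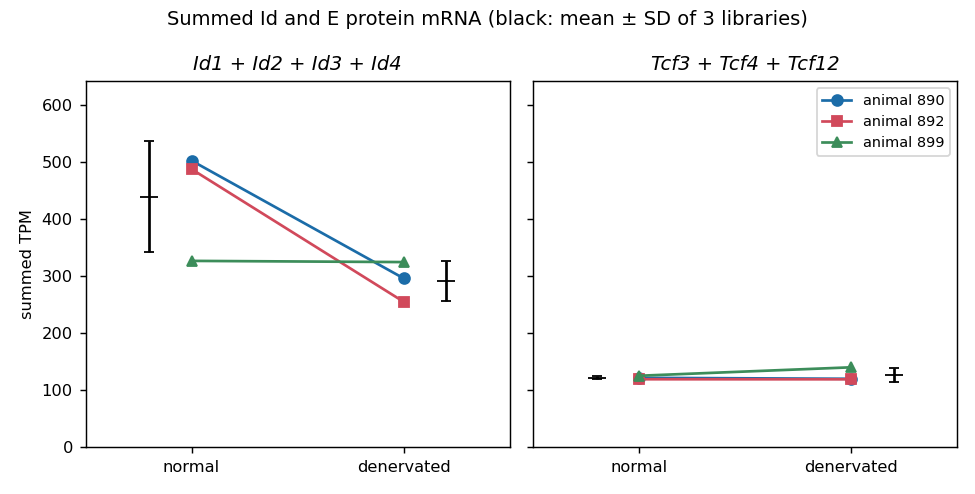
Summed TPM (axis from 0) of the 4 Id genes, left, and of the E protein genes Tcf3, Tcf4 and Tcf12, right, in the normal and denervated library of each mouse, with the mean ± SD of 3 libraries in black. The Id sum goes from 502 to 296 and from 487 to 254 TPM in mice 890 and 892 and from 326 to 324 TPM in mouse 899, while the E protein sum lies between 118 and 140 TPM throughout.

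Of the other genes of the BMP pathway, 1 changed in the paired fit, the ligand gene Bmp3. The lists, chosen with earlier results of these data known, held 60 such genes in the matrix, of which 37 passed the filter. The 1 called gene is 2.70% of these, beside 3.46% of all tested genes, and their median log2 fold change was −0.03, beside −0.02 for all tested genes. Bmp3, known as a ligand that opposes other BMPs, had 66.2, 62.9 and 78.2 CPM on the normal and 93.2, 74.0 and 104.6 CPM on the denervated side of mice 890, 892 and 899. It was higher in every mouse, while the groups overlapped (log2 fold change 0.38 ± 0.08 SE, adjusted p = 0.0245, edgeR). Its call was lost with library totals in place of TMM scaling, without the block and in limma on TPM.

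The list of other ligands held 13 genes, Bmp3 among them, and 2 besides Bmp3 passed the filter. Bmp7 stood at 25.6 ± 2.97 and 22.3 ± 5.42 TPM on the 2 sides, and Bmp6 was under 1 TPM. Bmp5, Bmp10, Gdf2, Gdf6 and Gdf7 were at 0 in all 6 libraries. None of 8 tested receptors and co-receptors passed. Acvr2b, a type II receptor, had the smallest p (log2 fold change −0.33 ± 0.18 SE, adjusted p = 0.374, edgeR), with a difference of −1.08 in mouse 890 and values near 0 in the other 2 mice. Bmpr1b, a type I receptor, stood at 0.29 ± 0.16 SE (adjusted p = 0.380, edgeR).

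Antagonists were well represented. Of 18 listed, 11 were tested and none passed between sides. Twsg1, which binds BMPs together with chordin, stood at 151 ± 3.95 TPM in normal and 134 ± 8.92 TPM in denervated libraries (−0.15 ± 0.07 SE on the log2 scale, adjusted p = 0.291, edgeR). Crim1, a transmembrane protein that binds BMPs, stood at 0.16 ± 0.08 SE (adjusted p = 0.275, edgeR). Nbl1, Fst, Sostdc1 and Fstl3 were present at 71.4, 43.0, 44.9 and 29.6 TPM on the normal side, and Nog, the classic antagonist, at 1.58 TPM. Fst, which encodes follistatin, and Grem1, which encodes gremlin, were the 2 other BMP genes that differed between mice (adjusted p = 0.0299 and 0.0115, edgeR). Their log2 fold changes between sides were 0.10 and −0.19. They are 5.41% of the 37 other BMP genes tested, beside 3.78% of all tested genes called between mice.

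Of 9 tested Smads and regulators none passed. Skil, a repressor of Smad activity, and Smurf1, a ubiquitin ligase that acts on BMP Smads, came closest (log2 fold changes 0.29 ± 0.09 and 0.25 ± 0.08 SE, adjusted p = 0.0927 for both, edgeR). Both were higher in 3 of 3 mice, and both were called without mouse 899. Smad5, which shares the role of Smad1, had a log2 fold change of −0.10 and Smad4 of 0.11 (adjusted p = 0.477 and 0.468, edgeR). Smad9, the third Smad of the BMP branch, did not pass the filter.

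Of 9 tested genes listed as further BMP targets, some of which are also listed as antagonists or Smads, none passed. Their log2 fold changes had a median of −0.23, beside −0.02 for all tested genes, and 7 of the 9 were negative. Of all tested genes, 51.3% to 52.4% were lower on the denervated side in single mice, a measure other than the sign in the paired fit. With so few genes, in a list chosen with earlier results known, nothing is read from this count. Smad7, an inhibitory Smad, went from 43.4 ± 9.49 CPM in normal to 35.2 ± 4.34 CPM in denervated libraries without passing (−0.29 ± 0.15 SE on the log2 scale, adjusted p = 0.309, edgeR). Its level was lower in mice 890 and 892 (differences −0.45 and −0.69) and higher in mouse 899 (0.29), and its log2 fold change was −0.07 without mouse 892 and −0.58, then called, without mouse 899. Dlx5, a homeobox factor, stood at −0.24 ± 0.18 SE (adjusted p = 0.525, edgeR), and at 0.04 without mouse 890. Gata3, a factor of epidermal differentiation, was abundant at 274 ± 20.7 and 260 ± 44.4 TPM and did not pass.

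**Figure D5:**
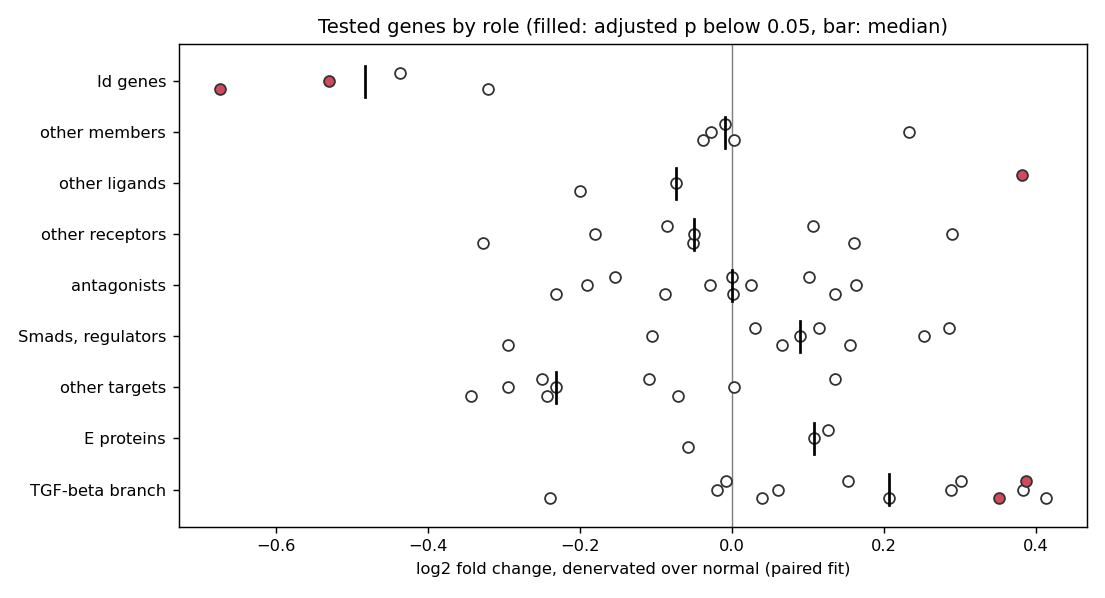
Log2 fold change of denervated over normal skin (horizontal axis, paired fit) of every tested gene, by role. Filled points have an adjusted p below 0.05 and bars mark medians, and a gene in 2 lists is drawn in both. The 4 Id genes lie between −0.67 and −0.32, and among the other BMP genes the only filled point is Bmp3 at 0.38.

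In the TGF-beta branch, which shares Smad4 with the BMP branch, 2 of 13 tested genes rose (15.4%, beside 2.88% of all tested genes called higher) and none fell. These were the receptor gene Tgfbr2 (164 ± 10.6 to 209 ± 15.4 CPM) and Smad3, which carries the TGF-beta signal (56.4 ± 1.53 to 74.0 ± 5.95 CPM), with adjusted p = 0.0196 and 0.0237 (edgeR). Both calls were lost without the block and in limma on TPM, that of Smad3 also with library totals and that of Tgfbr2 also without mouse 892. Among 9 tested other helix-loop-helix factors, Hes1, a Notch target, fell (−0.74 ± 0.14 SE, adjusted p = 0.0128, edgeR). Its call was lost in DESeq2 with the block, without the block and in limma on TPM. Its differences of −0.97, −1.08 and −0.14 in mice 890, 892 and 899 were ordered like the mean of the Id genes. The lists of TGF-beta genes and helix-loop-helix factors were chosen with earlier results of these data known. Their calls and shares are a description and no independent test.

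Over the 6 libraries Id1 and Id3 varied together most closely among the Id genes (Pearson r = 0.94 of log2 CPM). Id2 correlated with Id1, Id3 and Id4 at 0.71 to 0.73, and Id4 with Id1 and Id3 at 0.39 and 0.33. Correlations of the Id genes with Smad1 were −0.84 to −0.77. These are descriptions over 6 libraries from 3 mice, in which the difference between sides, the mouse and the library are shared by both genes. Of 8601 other genes with a mean of at least 10 CPM, the 5 most like Id1 were P2ry1, an ADP receptor gene, Ddx19b, Ttc5, Sesn1, a p53-induced stress gene, and Mrpl49 (r = 0.98 for each). Among the 5 most like Id3 were Zfp219, Mdm4, a p53 inhibitor gene, Poglut1 and Mtrr (r = 0.984 to 0.996). Those most like Id2 were Ercc3, Ppfia3, Rnf43, Micall2 and Tmppe, and those most like Id4 were Plekhm3, Abhd16a, Dgat2, Pcx and Hpf1. The 20 genes were all different ones, with r from 0.979 to 0.998. They are the highest of 8601 values for each Id gene, taken over only 6 libraries. Such a ranking gives high r also for unrelated genes, and no shared function or regulation was tested.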

How the data were processed

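Poly(A) RNA of 6 libraries (3 mice, 2 sides each) was analysed. Raw counts per gene symbol, as whole numbers, come from a deposited matrix of 24982 rows, of which 26 have names turned into dates and stayed in the totals. Files deposited for each sample hold estimated counts (not whole), TPM and lengths in bases (other values), per the file headers, and a deposited table holds TPM. The authors' deposited comparison holds log2 fold changes, a test score, p-values and mean normalised signal. STAR 2.6.1a, Salmon 0.11.2 and the mm10 build are listed, with no roles, in the submitters' processing notes. Which annotation was counted, and with which strand setting, is not given in the sources used here. Libraries were made with a directional kit, per the labels' protocols.

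Groups and mouse numbers came from the titles. Per the labels' protocols each mouse gave both sides, so the mouse was a block. As a check, same-mouse deviations from group means correlated at 0.356, 0.361 and 0.443 across genes. No 2 libraries of a group were duplicates (chi-square of their counts over its degrees of freedom 12.2 to 18.0). Sides were compared in R 4.3.3 with the quasi-likelihood test of edgeR 4.0.16. It used TMM factors and the genes kept by filterByExpr (12310, at a minimum count of 10 and a minimum total of 15). P-values were adjusted by Benjamini-Hochberg over all of them and called below 0.05. The standard error (SE) of a log2 fold change is its size divided by the root of the F statistic. Tested on simulated data for this comparison (12186 genes), it recovered 63 of 100 genes changed by 0.5 and 100 of 100 changed by 1 on the log2 scale, with 4 false calls. Library totals of 9610071 to 26167593 counts limit genes at a few counts.

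Each result was recomputed with size factors of DESeq2, with library totals, with other filters, without the block, with DESeq2 1.42.0, on estimated counts rounded to whole numbers, with limma 3.58.1 on log2(TPM + 1) for genes of at least 1 mean TPM (a scale that understates the change of low genes), and without each mouse. Leaving out 1 library of a pair leaves its partner without a contrast, so mice were left out whole. The members and lists were chosen with earlier results of these data known. From each list the genes called, at most 4, or else the 2 with the smallest p, were named. Some genes that these rules name are not reported here, and the counts of lists leave them out. Other genes were named for their levels, after their values were seen. Likeness was ranked by Pearson r among genes of at least 10 CPM, without predicted genes. Promoter windows are from RefSeq (GRCm38.p6) and gene positions from GENCODE vM21.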

Additional observations from a re-analysis of the deposited data

How the results depend on the processing

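The paired test called 426 genes, 355 higher and 71 lower (83.3% higher). It called 987 without the filter on low counts (70.1% higher), 0 without the replicate block (1537 genes had an unadjusted p below 0.05 there, and DESeq2 with the block called 492), 1 in limma on log2(TPM + 1), and 248 to 976 without 1 mouse, the lowest without mouse 892 and the highest without mouse 899. With library totals in place of TMM it called 290, 172 higher and 118 lower (59.3% higher). Of the 9 tested members 2 were called, and 0 without the replicate block, with estimated counts, with DESeq2 with the animal as block (where the adjusted p of Id2 and Id4 was not given) and with limma. Leaving out 1 mouse gave 0 to 3 members, 0 without mouse 892 and 3 without mouse 899. Of the other BMP genes 1 was called, and 0 with library totals, 0 without the replicate block, 0 with limma, 3 without the filter and 1 to 4 without 1 mouse, the highest without mouse 899. Between mice 465 genes were called, 1057 without the filter, and 329 to 878 without 1 mouse, the lowest without mouse 899 and the highest without mouse 890. Dlx5 (log2 fold change −0.24) ran from −0.40 without mouse 899 to 0.038 without mouse 890, a change of sign. Why these values moved was not tested. The signs of Bmp2, Bmp4, Bmpr1a and Bmpr2 differed between alternatives, within −0.15 to 0.11. Smad6 had too few counts for the main filter, and depth limits what can be said of it.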
